A study of Mus musculus with 8 samples.

Results

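The genes described here copy the genome during S phase: the origin licensing factors, the replicative helicase, the polymerases, the sliding clamp and its loader, the enzymes that make deoxynucleotides and the factors that rebuild chromatin behind the fork. Of 43 such genes, chosen by symbol, 42 were measured among the 19494 named genes on the arrays, each by 1 probe set. Mcm7 had no named probe set and its expression was not analysed here. Expression was measured in 4 arrays of IDE-KD cells and 4 arrays of control cells. The cells are alphaTC1.9, a mouse pancreatic alpha cell line, here grown in 16 mM glucose with no other treatment. In IDE-KD cells insulin-degrading enzyme (Ide), a protease that cleaves insulin and other small peptides, was depleted by RNA interference with an siRNA. The labels give the other group as control only, and neither the kind of control nor the time after knockdown is stated there. All arrays come from 1 cell line. The labels call the arrays biological and the RNA preparations independent without naming separate cultures. Errors and p-values therefore cover only how these 8 arrays vary, and some of that may be technical. The 43 genes were proposed after the IDE-KD minus control differences of S phase genes in these arrays were known, so their differences are given as a description and are not tested as a group.

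Replication is prepared in G1, when the origin recognition complex with Cdc6 and Cdt1 loads the MCM helicase onto DNA. In S phase Cdc45 and the GINS complex join MCM to form the active helicase, primase and polymerase alpha lay down primers, and the clamp loader places PCNA to hold the main polymerases on DNA. Many of these genes are transcribed together at the border of G1 and S by E2F factors, which bind promoters through a short element and are held back by the retinoblastoma protein. Their mRNA is therefore widely used as a readout of the share of cells in cycle. In RNA from a whole culture, fewer cells in S phase and less RNA per cell cannot be told apart.

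Promoter sequences were not used to choose these genes, but many of them are known E2F targets, so E2F-type words were likely from the choice itself. RefSeq promoter entries (GRCm38.p6, 250 bases before to 50 after the transcription start) were found for 35 of the 43 genes. They were searched on both strands for 4 E2F-type words, TTTCCCGC, TTTCGCGC, TTTGCCGC and TTTGGCGC, none of which is its own reverse complement. At least 1 word occurred in 14 of the 35 genes (40.0%), against 2.60% of all 27025 genes with an entry. By single promoter entry the share was 35.0% of 40 entries, against 2.26% of all 32851. Among other replication and S phase genes 22 of 60 with an entry held a word (36.7%), and among mitotic genes 4 of 43 (9.30%). The CCAAT box, searched on both strands, was in 21 of 35 of the replication genes (60.0%), against 31 of 43 mitotic genes (72.1%) and 41.1% of all genes. The shares over all genes were not matched for base composition. Such a match is a description of the letters and not a binding site, and a missing match says only that these words are not in this window.

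The 6 promoters below are shown because they hold the words in front of genes from different steps of replication, with each word in capitals. The strand of the gene is printed 5′ to 3′, and GCGGGAAA, GCGCGAAA and GCGCCAAA are words read on the opposite strand. Hells is at chr19:38930740-38931039 (plus strand), Mcm5 at chr8:75109259-75109558 (plus), Mcm6 at chr1:128359656-128359955 (minus), Orc1 at chr4:108579204-108579503 (plus), Pola1 at chrX:93632106-93632405 (minus) and Rfc3 at chr5:151651159-151651458 (minus).
Hells: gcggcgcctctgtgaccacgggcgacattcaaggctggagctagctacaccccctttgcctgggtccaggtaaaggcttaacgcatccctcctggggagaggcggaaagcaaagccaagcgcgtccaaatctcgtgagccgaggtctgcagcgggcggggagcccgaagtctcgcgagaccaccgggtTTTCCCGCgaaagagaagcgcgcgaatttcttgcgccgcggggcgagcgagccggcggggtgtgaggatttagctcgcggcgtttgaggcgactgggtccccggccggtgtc
Mcm5: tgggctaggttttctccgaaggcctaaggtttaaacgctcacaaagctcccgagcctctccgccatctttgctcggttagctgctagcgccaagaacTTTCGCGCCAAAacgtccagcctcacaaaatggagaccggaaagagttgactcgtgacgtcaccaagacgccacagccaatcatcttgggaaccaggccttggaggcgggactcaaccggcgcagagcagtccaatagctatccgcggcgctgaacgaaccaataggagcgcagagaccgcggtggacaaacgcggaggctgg
Mcm6: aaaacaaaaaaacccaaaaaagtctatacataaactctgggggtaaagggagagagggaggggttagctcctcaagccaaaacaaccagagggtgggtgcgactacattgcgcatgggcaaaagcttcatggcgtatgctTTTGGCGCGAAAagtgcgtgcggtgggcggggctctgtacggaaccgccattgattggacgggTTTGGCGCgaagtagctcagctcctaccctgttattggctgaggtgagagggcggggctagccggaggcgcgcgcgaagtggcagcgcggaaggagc
Orc1: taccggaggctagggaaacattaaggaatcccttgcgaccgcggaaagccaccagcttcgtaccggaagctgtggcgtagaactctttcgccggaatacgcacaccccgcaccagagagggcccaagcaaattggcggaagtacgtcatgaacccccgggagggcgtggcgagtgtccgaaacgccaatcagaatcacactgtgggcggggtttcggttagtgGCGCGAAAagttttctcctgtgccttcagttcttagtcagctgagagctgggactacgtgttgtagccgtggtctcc
Pola1: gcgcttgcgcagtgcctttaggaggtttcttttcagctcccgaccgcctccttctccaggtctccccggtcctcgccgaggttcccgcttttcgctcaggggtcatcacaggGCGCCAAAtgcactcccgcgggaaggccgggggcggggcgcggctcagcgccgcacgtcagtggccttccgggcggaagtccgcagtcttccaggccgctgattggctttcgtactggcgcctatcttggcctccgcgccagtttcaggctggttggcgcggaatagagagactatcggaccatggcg
Rfc3: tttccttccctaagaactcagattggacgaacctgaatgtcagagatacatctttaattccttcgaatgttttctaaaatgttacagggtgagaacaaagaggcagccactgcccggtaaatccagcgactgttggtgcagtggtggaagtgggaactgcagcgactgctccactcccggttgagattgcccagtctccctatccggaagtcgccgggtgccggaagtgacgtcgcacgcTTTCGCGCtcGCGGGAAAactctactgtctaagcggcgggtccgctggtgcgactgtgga
In Mcm5 and in the upstream site of Mcm6, words on the 2 strands overlap in a palindrome-like run of capitals. Over all 14 genes there were 20 matches, 13 of them starting before the transcription start and 12 within 100 bases of it. Of these matches 7 were TTTCCCGC, 7 were TTTCGCGC and 6 were TTTGGCGC, while TTTGCCGC was not found.

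**Figure D1:**
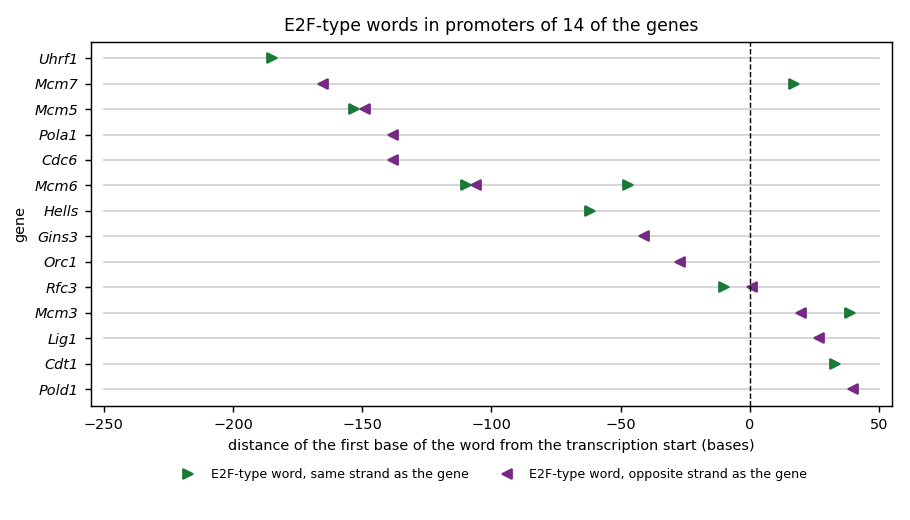
Distance in bases of the first base of each E2F-type word from the transcription start, for the 14 genes with a match; right-pointing triangles are words on the strand of the gene and left-pointing triangles words on the opposite strand. The 20 matches run from base -185 (Uhrf1) to base 40 (Pold1), and 7 of them begin after the start.

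Genes with and without a word both had medians below 0 in the knockdown comparison, and the difference between them was not tested. The 13 measured genes with a word had a median log2 difference, IDE-KD minus control, of -0.11 with 11 of 13 below 0, and the 21 with an entry and no word a median of -0.07 with 14 of 21 below 0. The 8 measured genes with no promoter entry, which could not be searched, had a median of -0.06 with 7 of 8 below 0. Each set had its lowest means on IDE-KD arrays 1 and 3. On IDE-KD arrays 1 to 4, genes with a word deviated from their control means by -0.16, 0.02, -0.19 and -0.05 on average. Genes with an entry and no word deviated by -0.15, 0.06, -0.18 and 0.0029. The split was widest for the genes with no entry, at -0.35, 0.18, -0.28 and 0.07.

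The labelled groups and cell type were checked first. Ide (probe set TC1900001454.mm.2) read 7.91, 8.14, 7.92 and 8.05 in IDE-KD arrays, against 8.66, 8.62, 8.72 and 8.48 in control arrays, on the deposited log2 scale. The groups did not overlap, with a difference of -0.62 (SE 0.12, 95% confidence interval -0.87 to -0.36), 1.53-fold lower (exact two-sided permutation p = 0.0286, the lowest value possible with 4 arrays a group). Its adjusted p from limma over all tested probe sets was 1.00, so the targeted gene did not pass that threshold either. Glucagon, the defining alpha cell hormone, was bright in both groups (Gcg, 12.06 ± 0.10 in IDE-KD and 12.06 ± 0.07 in control arrays, SD, n = 4 each). The array medians, taken over 22142 tested probe sets, were 5.11 to 5.17 for IDE-KD and 5.10 to 5.14 for control. Correlations between arrays ranged from 0.984 to 0.993 within groups and from 0.984 to 0.991 between them.

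IDE-KD arrays 1 and 3 stood apart from the other 6 arrays, and this has to be known before any gene is read. Their SD over the tested probe sets was 2.16 and 2.13, against 2.25 and 2.23 on IDE-KD arrays 2 and 4 and 2.20 to 2.24 in control arrays. Their mean over the exon control probe sets was 6.95 and 6.92, against 7.13 and 7.09 on IDE-KD arrays 2 and 4 and 7.05 to 7.10 in control arrays. Their mean over the intron control probe sets was 4.20 on each, against 4.28 and 4.25 on IDE-KD arrays 2 and 4 and 4.28 to 4.38 in control arrays. The gap between the exon and intron control means did not set them apart. It was 2.76 and 2.72 on IDE-KD arrays 1 and 3, within the 2.71 to 2.79 of control arrays. On IDE-KD arrays 2 and 4 it was 2.85 and 2.84, above every control array. The labels name no batch, scan or extraction that sets IDE-KD arrays 1 and 3 apart.

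Replication and S phase genes were lowest on these same arrays. The mean deviation of the 42 genes from their control means was -0.19, 0.07, -0.20 and 0.0010 on IDE-KD arrays 1, 2, 3 and 4, against -0.03, 0.03, -0.02 and 0.02 on control arrays 1 to 4. On IDE-KD array 1, 36 of 42 genes were below their control mean and on array 3, 38 of 42. On IDE-KD arrays 2 and 4 the counts were 15 and 19, and on the control arrays 24, 18, 21 and 15. The knockdown group was thus split, with 2 arrays below every control array and 2 arrays near or above them. The lowest of a gene's 8 values came from IDE-KD array 1 for 15 genes and from array 3 for 11, from array 2 for 3, from array 4 for 1 and from a control array for 12. Over all tested probe sets these shares were 14.3% for IDE-KD array 1 and 16.4% for array 3, against 35.7% and 26.2% of the 42 genes. Over the 8745 tested probe sets at least as bright as the dimmest of the 42, they were 21.5% and 25.7%, so the share for array 3 was close to that of the genes.

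Bright probe sets in general shared part of this pattern. The control means of the 42 genes lay between 5.98 and 10.25, all above the median intron control probe set of 4.16. For 8 of them, Rfc3, Gins1, Orc1, Pole, Tk1, Rfc5, Pold1 and Lig1, the control mean was below 6.87, the level under which 95% of intron control probe sets lie. The 8745 bright probe sets had a mean deviation of -0.07 and -0.11 on IDE-KD arrays 1 and 3 and of 0.04 and 0.03 on arrays 2 and 4. On arrays 1 and 3, 61.1% and 70.6% of these probe sets were below their control mean, against 85.7% and 90.5% of the 42 genes. Over all tested probe sets the mean deviation was 0.02 on each of the 2 arrays. Marker sets of other cells, dim sets near the intron control level, did not all move alike. The mean of 7 fibroblast and stellate cell markers was 0.26 and 0.21 above the control mean on IDE-KD arrays 1 and 3, against 0.05 and -0.0026 on arrays 2 and 4, but it was also 0.15 and 0.16 above on control arrays 1 and 4. The immune, endothelial and exocrine set was at 0.0012, -0.09, 0.20 and -0.04 on IDE-KD arrays 1 to 4, and the beta, delta, PP and epsilon cell set at 0.15, 0.03, 0.26 and -0.06, with control array 1 at 0.13. Of the fibroblast and stellate cell markers 6 of 7 had a difference above 0, and their mean level ranged from 3.97 to 4.23 in IDE-KD arrays and from 3.78 to 4.14 in control arrays. Of 11 beta, delta, PP and epsilon cell markers 9 were above 0 (mean level 4.22 to 4.53 in IDE-KD arrays and 4.13 to 4.41 in control arrays), and of 11 immune, endothelial and exocrine markers 7 (3.94 to 4.23 in IDE-KD arrays and 4.01 to 4.05 in control arrays). The part of array spread, control probe level and other cells in the replication gene values was not tested.

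**Figure D2:**
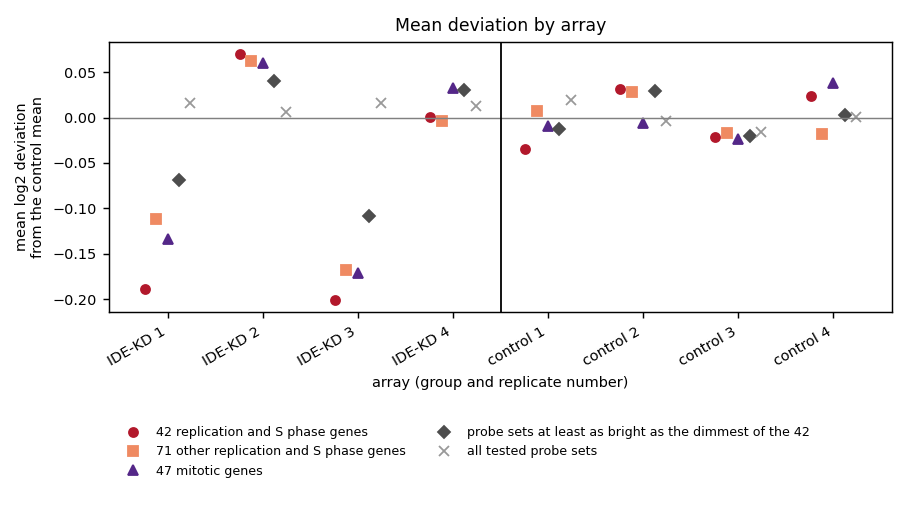
Mean log2 deviation from the control mean on each of the 8 arrays for the 42 replication and S phase genes, 71 other replication and S phase genes, 47 mitotic genes, 8745 bright probe sets and all 22142 tested probe sets. The 42 genes lie at -0.19 and -0.20 on IDE-KD arrays 1 and 3 and at 0.07 and 0.0010 on IDE-KD arrays 2 and 4, while control arrays stay between -0.03 and 0.03.

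Across all 8 arrays the median log2 difference of the 42 genes, IDE-KD minus control, was -0.08, against 0.0074 over all tested probe sets and -0.03 over the 8745 bright ones. The mean was lower in IDE-KD arrays for 32 of 42 genes and higher for 10, where 47.9% of all tested probe sets and 58.8% of the bright ones were lower. Single differences ran from -0.38 for Hells to 0.14 for Cdc45. In limma 0 of 42 passed an adjusted p of 0.05, as did 0 of 22142 tested probe sets (0%). At an unadjusted p under 0.05, 2 of the 42 were lower and 0 higher, against 1.91% and 2.69% of all tested probe sets. Of the 8745 bright ones 154 were lower and 53 higher at that threshold. The groups did not overlap, with IDE-KD lower, for 2 of 42 (1.41% of all tested probe sets) and, with IDE-KD higher, for 0 of 42 (1.39%). Among the bright ones 173 had no overlap with IDE-KD lower and 71 with IDE-KD higher, so more were lower than higher there too. The count with IDE-KD lower was 0 after quantile normalization, after cyclic loess and with the exon control mean subtracted, and 1 with the arrays brought to the same SD. It was 5 without IDE-KD array 2, 4 without IDE-KD array 4 and 4 without control array 1. No share over all tested probe sets is given under these scalings and left-out arrays, so these counts cannot be set against the 1.41%. The 95% confidence interval left out a 1.5-fold change in either direction for 39 of 42 genes, 8235 of the 8745 bright probe sets and 18503 of all 22142. It left out a 2-fold change for all 42 genes, 8736 of the bright probe sets and 22074 of all. Since this contrast was known when the genes were proposed, nothing is read from these shares.

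The direction of the median rested on IDE-KD arrays 1 and 3. Leaving both out gave a median of 0.055 with 17 of 42 genes lower (40.5%). The median was then 0.0050 over all tested probe sets and 0.023 over the 8745 bright ones, of which 44.2% were lower. These were the 2 arrays on which the 42 genes were lowest, so leaving them out raises the median by that choice alone. Nothing further is read from the turn in sign. That fit kept control arrays 1 and 3 and so is not balanced by replicate number. The 42 genes had mean deviations of -0.03 and -0.02 on control arrays 1 and 3, against 0.03 and 0.02 on control arrays 2 and 4. The same limit holds for every single-gene value without IDE-KD arrays 1 and 3. Without IDE-KD array 1 alone the median was -0.027 and without array 3 alone -0.031. Other scalings kept the median below 0, between -0.09 and -0.027, with 23 to 32 of the 42 genes lower. The split of lower against higher genes was 26 to 16 after cyclic loess, 27 to 15 with the arrays brought to the same SD and 23 to 19 with the exon control mean subtracted. Of all tested probe sets 49.4%, 50% and 34.35% were lower under these scalings, in the same order. Subtracting the exon control mean shifts every difference by the same amount, and the median over all tested probe sets was then 0.059. A sign that turned under it is to be read beside that shift. Of the 32 lower genes, 21 stayed below 0 in all 5 scalings and in each of the 8 fits that dropped 1 array, and 14 of those also without IDE-KD arrays 1 and 3. Of the 10 higher genes, Mcm3, Gins3 and Cdc45 stayed above 0 throughout.

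**Figure D3:**
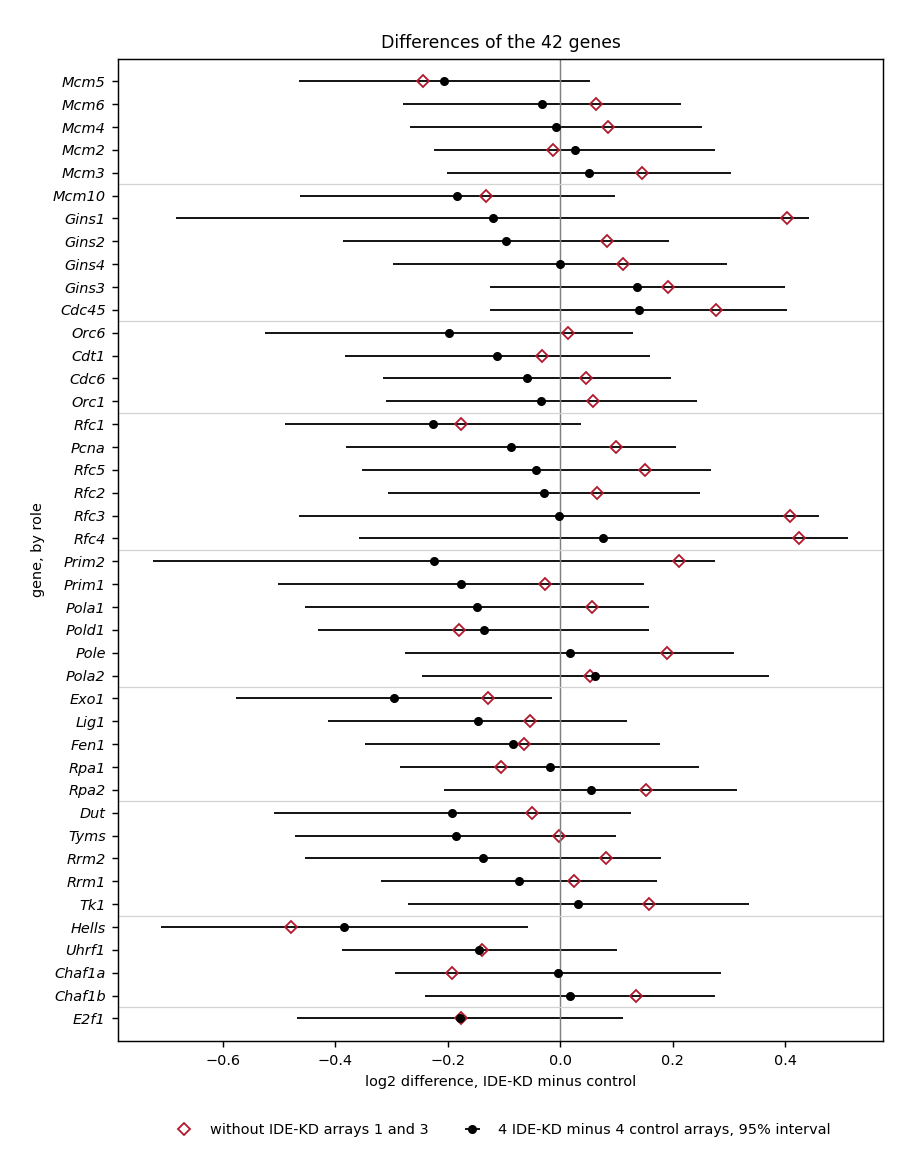
Log2 difference, IDE-KD minus control, of each of the 42 genes in order of role; black points are the fit on 4 against 4 arrays with its 95% confidence interval, and open diamonds the same difference without IDE-KD arrays 1 and 3. Black points run from -0.38 (Hells) to 0.14 (Cdc45), and 17 open diamonds lie on the other side of 0 from their black point.

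**Figure D4:**
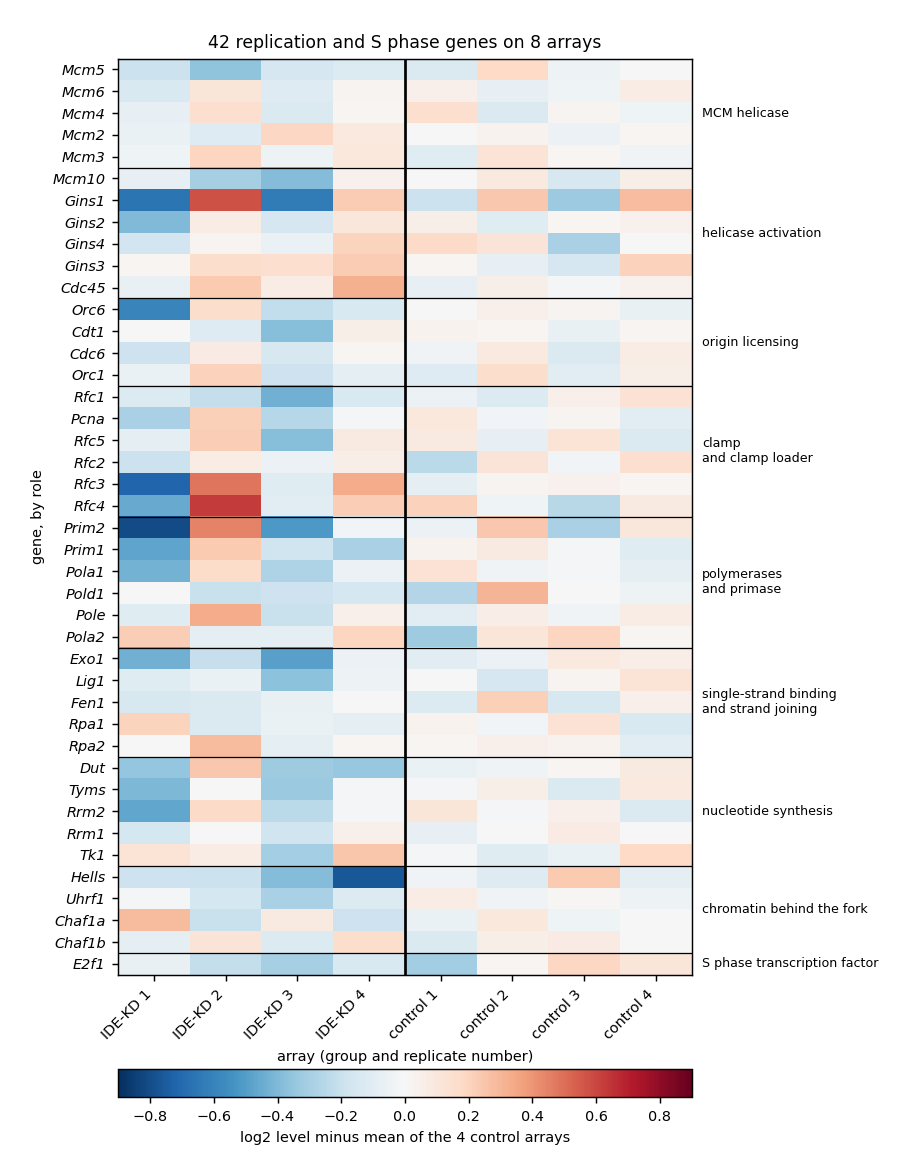
Log2 level of each of the 42 genes on each array minus the gene's mean over the 4 control arrays, with genes in rows by role and arrays in columns, IDE-KD on the left. Columns IDE-KD 1 and IDE-KD 3 are mostly blue, with 36 and 38 of 42 genes below the control mean, and columns IDE-KD 2 and IDE-KD 4 are mixed, with 15 and 19.

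Origin licensing factors mark the sites where replication will start, and all 4 measured had a difference below 0, with a median of -0.09. Without IDE-KD arrays 1 and 3 the median was 0.03, with 1 of 4 lower, and Orc1 and Cdc6 were at 0.06 and 0.05. Orc6, the smallest subunit of the origin recognition complex, had the lowest of them. It read 6.53, 7.29, 6.91 and 6.99 in IDE-KD arrays, against 7.13, 7.17, 7.16 and 7.06 in control arrays, a difference of -0.20 (SE 0.15). IDE-KD array 2 was above every control array and the other 3 were below them, and the difference was 0.01 without IDE-KD arrays 1 and 3. Cdt1, which brings MCM to origins and is destroyed once S phase begins, differed by -0.11 (SE 0.12), Cdc6, the ATPase that works beside it, by -0.06 (SE 0.12), and Orc1, the largest origin recognition subunit, by -0.03 (SE 0.13). The Orc1 sign turned with the exon control mean subtracted and without IDE-KD array 3 or control array 2.

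The MCM helicase unwinds DNA at the fork as a ring of related subunits, and the 5 measured did not share 1 direction. Their median difference was -0.0070, with 3 below 0 and 2 above, and it was 0.06 without IDE-KD arrays 1 and 3. Mcm5 was the exception on the low side, at 8.76, 8.59, 8.80 and 8.83 in IDE-KD arrays, against 8.82, 9.13, 8.91 and 8.94 in control arrays. Only IDE-KD array 4, by a narrow margin, overlapped with control array 1, and the difference was -0.21 (SE 0.12), or -0.24 without IDE-KD arrays 1 and 3. Mcm2 read 9.33, 9.27, 9.57 and 9.48 in IDE-KD arrays, against 9.39, 9.42, 9.34 and 9.40 in control arrays. Its IDE-KD values lay on both sides of a tight control group, with a difference of 0.03 (SE 0.12) that turned to -0.028 without IDE-KD array 3. Mcm3 read 8.63, 8.87, 8.63 and 8.77 in IDE-KD arrays, against 8.56, 8.79, 8.69 and 8.64 in control arrays, with overlap and a difference of 0.05 (SE 0.12). Mcm6 and Mcm4 differed by -0.03 (SE 0.11) and -0.0070 (SE 0.12), and both signs turned under at least 1 scaling.

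Factors that turn the loaded ring into a working helicase held the highest differences of all 42 genes. Cdc45, which joins MCM and GINS, read 8.47, 8.77, 8.60 and 8.85 in IDE-KD arrays, against 8.46, 8.58, 8.52 and 8.57 in control arrays. IDE-KD arrays 2, 3 and 4 were above every control array and array 1 was within them, for a difference of 0.14 (SE 0.12). It was 0.28 without IDE-KD arrays 1 and 3. Gins3, a GINS subunit, read 7.07, 7.21, 7.20 and 7.28 in IDE-KD arrays, against 7.07, 6.98, 6.90 and 7.26 in control arrays, with overlap and a difference of 0.14 (SE 0.12). Mcm10, which helps the helicase start, lay on the other side, at 7.27, 7.05, 6.96 and 7.39 in IDE-KD arrays, against 7.35, 7.44, 7.20 and 7.40 in control arrays. IDE-KD arrays 2 and 3 were below all controls there, and the difference was -0.18 (SE 0.13). Gins2 and Gins4, further GINS subunits, differed by -0.10 (SE 0.13) and -0.0005 (SE 0.14), and the Gins4 sign turned under 4 of the 5 scalings.

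Gins1 is described because its values spread widely in both groups, a choice made after its values were seen. It read 5.33, 6.56, 5.36 and 6.22 in IDE-KD arrays, against 5.80, 6.23, 5.66 and 6.27 in control arrays. Arrays numbered 1 and 3 were the low ones in both groups, and the difference was -0.12 (SE 0.26) with all arrays and 0.40 (SE 0.20) without IDE-KD arrays 1 and 3. The latter fit kept the low control arrays 1 and 3, so the 0.40 is not a balanced comparison. Within IDE-KD arrays the range was 1.23, more than 2-fold. A range over 1 log2 unit in IDE-KD arrays was seen for 4 of the 42 genes, Gins1, Prim2, Rfc3 and Rfc4, and for 5.50% of all tested probe sets and 3.34% of the bright ones. In control arrays 0 of the 42 genes reached it, against 2.15% and 0.240%. The range was wider in IDE-KD than in control arrays for 34 of 42 genes, against 61.3% of all tested probe sets and 64.8% of the bright ones.

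Polymerase alpha and primase make the RNA-DNA primers, and both primase subunits were among the 12 lowest differences. Prim2, the large primase subunit, read 6.45, 7.70, 6.74 and 7.23 in IDE-KD arrays, against 7.20, 7.50, 6.96 and 7.36 in control arrays. Again arrays numbered 1 and 3 were the low ones in both groups, and the difference of -0.22 (SE 0.23) became 0.21 without IDE-KD arrays 1 and 3. Control arrays 1 and 3 were kept in that fit too. Prim1, the catalytic subunit, read 7.93, 8.64, 8.22 and 8.11 in IDE-KD arrays, against 8.43, 8.48, 8.39 and 8.29 in control arrays, a difference of -0.18 (SE 0.15). IDE-KD array 2 was the highest of the 8 and the other 3 IDE-KD arrays the lowest. Pola1, the catalytic subunit of polymerase alpha whose promoter is printed above, read 7.64, 8.23, 7.79 and 8.02 in IDE-KD arrays, against 8.19, 8.04, 8.06 and 7.98 in control arrays. The groups overlapped, with -0.15 (SE 0.14) over all arrays and 0.057 without IDE-KD arrays 1 and 3.

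Its partner Pola2 went the other way by a small amount. It read 8.68, 8.37, 8.38 and 8.65 in IDE-KD arrays, against 8.14, 8.56, 8.65 and 8.48 in control arrays. Control array 1 was the lowest of the 8, and the difference of 0.06 (SE 0.14) was -0.045 without it. Pole, the catalytic subunit of the leading strand polymerase, read 6.29, 6.74, 6.20 and 6.45 in IDE-KD arrays, against 6.31, 6.46, 6.37 and 6.47 in control arrays. IDE-KD values lay on both sides of the controls, with a difference of 0.02 (SE 0.14), 0.19 without IDE-KD arrays 1 and 3. Pold1, the catalytic subunit of polymerase delta, differed by -0.14 (SE 0.14).

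The clamp and its loader deviated from their control means by -0.31, 0.23, -0.22 and 0.09 on average on IDE-KD arrays 1 to 4. Rfc1, the large loader subunit (probe set TC0500002483.mm.2), was 1 of the 2 genes without overlap. It read 9.13, 9.04, 8.82 and 9.12 in IDE-KD arrays, against 9.20, 9.13, 9.30 and 9.38 in control arrays, a difference of -0.23 (SE 0.12, 95% confidence interval -0.49 to 0.04). IDE-KD array 1 and control array 2 were equal to 2 decimals, and the groups overlapped after quantile normalization, cyclic loess, bringing the arrays to the same SD or subtracting the exon control mean. Pcna, the clamp itself, read 9.96, 10.47, 10.00 and 10.23 in IDE-KD arrays, against 10.35, 10.23, 10.28 and 10.16 in control arrays. IDE-KD arrays 1 and 3 were below all controls and array 2 above them, so that the difference was -0.09 (SE 0.14) with all arrays and 0.100 without arrays 1 and 3.

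Rfc4, a small loader subunit, read 7.91, 8.99, 8.27 and 8.58 in IDE-KD arrays, against 8.57, 8.32, 8.11 and 8.44 in control arrays. The highest and the lowest of the 8 values were both IDE-KD, and the difference was 0.08 (SE 0.20), -0.11 without IDE-KD array 2 and 0.42 without IDE-KD arrays 1 and 3. Rfc3, named after its values were seen, read 5.26, 6.46, 5.87 and 6.31 in IDE-KD arrays, against 5.89, 6.00, 6.02 and 6.00 in control arrays. Its control arrays were within 0.13 of each other while its IDE-KD arrays spanned 1.20, and the fitted difference was -0.0024 (SE 0.21). Rfc5 and Rfc2 differed by -0.04 (SE 0.14) and -0.03 (SE 0.13), with signs that turned when the exon control mean was subtracted.

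**Figure D5:**
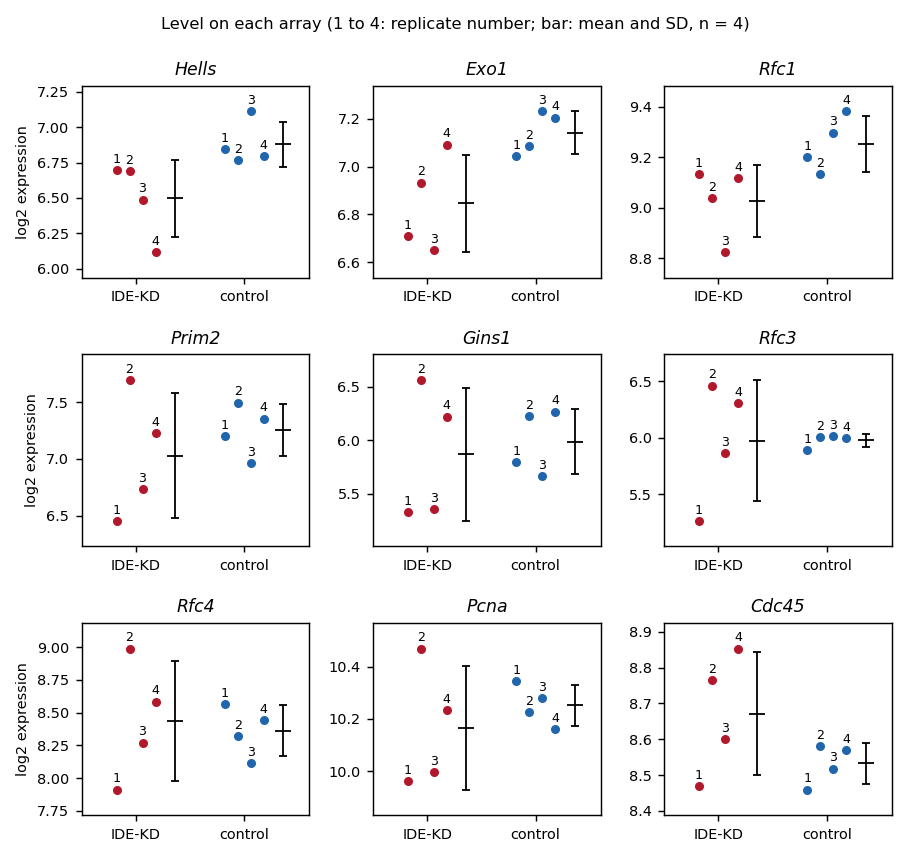
Log2 expression of 9 of the genes on each array, with points numbered by replicate and the mean and SD (n = 4) beside each group; axes do not start at 0. As deposited, Hells and Rfc1 have every IDE-KD point below every control point, which 3 of the 5 other scalings do not keep for Hells and 4 of the 5 do not keep for Rfc1, while Prim2, Gins1, Rfc3, Rfc4 and Pcna have IDE-KD points both below and above the control points.

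Genes for single-strand handling and strand joining deviated from their control means by -0.10, -0.05, -0.21 and -0.03 on average on IDE-KD arrays 1 to 4. Exo1, an exonuclease that resects DNA ends and acts in mismatch repair (probe set TC0100001656.mm.2), read 6.71, 6.93, 6.65 and 7.09 in IDE-KD arrays, against 7.04, 7.09, 7.23 and 7.20 in control arrays. IDE-KD arrays 1, 2 and 3 were below all controls and array 4 within them. The difference was -0.30 (SE 0.13, 95% confidence interval -0.58 to -0.01), and -0.13 (SE 0.14) without IDE-KD arrays 1 and 3. Rpa2, a subunit of the protein that coats single-stranded DNA, read 7.32, 7.61, 7.24 and 7.34 in IDE-KD arrays, against 7.34, 7.37, 7.36 and 7.23 in control arrays, a difference of 0.05 (SE 0.12) that was -0.022 without IDE-KD array 2. Lig1, the ligase that seals Okazaki fragments, differed by -0.15 (SE 0.12), Fen1, the flap nuclease that trims them, by -0.08 (SE 0.12), and Rpa1 by -0.02 (SE 0.12), with a sign that turned under 4 of the 5 scalings.

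Enzymes of deoxynucleotide supply deviated from their control means by -0.25, 0.10, -0.28 and -0.02 on average on IDE-KD arrays 1 to 4, with Tk1 above its control mean on array 1. Dut, which removes dUTP, read 6.81, 7.40, 6.84 and 6.81 in IDE-KD arrays, against 7.10, 7.12, 7.18 and 7.24 in control arrays. IDE-KD arrays 1, 3 and 4 were below all controls and array 2 above them, for a difference of -0.19 (SE 0.15) and of -0.34 without array 2. Tyms, thymidylate synthase, read 8.09, 8.49, 8.15 and 8.48 in IDE-KD arrays, against 8.48, 8.54, 8.36 and 8.58 in control arrays. Here IDE-KD arrays 1 and 3 alone were below the controls, and the difference of -0.19 (SE 0.13) was -0.0023 without them. Tk1, thymidine kinase, had a difference above 0: it read 6.68, 6.63, 6.25 and 6.81 in IDE-KD arrays, against 6.55, 6.45, 6.50 and 6.74 in control arrays, or 0.03 (SE 0.14). It was low on IDE-KD array 3 only, and was -0.039 without IDE-KD array 4. Rrm2 and Rrm1, the subunits of ribonucleotide reductase, differed by -0.14 (SE 0.15) and -0.07 (SE 0.11), and both were above 0 without IDE-KD arrays 1 and 3, at 0.081 and 0.024.

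Chromatin factors deviated from their control means by 0.0021, -0.11, -0.18 and -0.23 on average on IDE-KD arrays 1 to 4. The mean on array 1 rested on Chaf1a, at 8.28 there against a control mean of 7.99. Hells, Chaf1b and Uhrf1 were below their control means on that array, Uhrf1 only slightly, at 8.87 against 8.88. Hells, a remodeller needed for DNA methylation of repeats (probe set TC1900000560.mm.2), had the lowest difference of the 42 genes and no overlap. It read 6.69, 6.69, 6.49 and 6.12 in IDE-KD arrays, against 6.85, 6.77, 7.11 and 6.80 in control arrays. Its lowest value was on IDE-KD array 4, and the difference of -0.38 (SE 0.15, 95% confidence interval -0.71 to -0.06) was -0.48 (SE 0.18) without IDE-KD arrays 1 and 3 and -0.26 without IDE-KD array 4. Its groups overlapped after quantile normalization, after cyclic loess and with the exon control mean subtracted. Chaf1b, a subunit of the histone chaperone CAF-1, read 8.32, 8.51, 8.28 and 8.55 in IDE-KD arrays, against 8.27, 8.45, 8.47 and 8.40 in control arrays, with overlap and a difference of 0.02 (SE 0.12). Its partner Chaf1a differed by -0.0042 (SE 0.13), with a sign that turned under 4 of the 5 scalings, and Uhrf1, which recruits the maintenance DNA methyltransferase, by -0.14 (SE 0.11).

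E2f1 encodes one of the transcription factors of this programme. It read 7.37, 7.22, 7.14 and 7.30 in IDE-KD arrays, against 7.12, 7.46, 7.63 and 7.54 in control arrays. All IDE-KD values lay within the control range because control array 1 was the lowest of the 8, and the difference was -0.18 (SE 0.13), -0.28 without control array 1 and -0.18 without IDE-KD arrays 1 and 3. Its probe set thus did not share the split between IDE-KD arrays seen for Pcna, Tyms or Prim2.

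Other genes of the same programme also had a median below 0, as did the bright probe sets in general. Of 75 further replication and S phase genes listed, 71 were measured. Their median difference was -0.05, with 50 lower (70.4%) and 21 higher. Over the 8745 bright probe sets the median was -0.03, with 58.8% lower. Of the 71, 0 passed an adjusted p of 0.05, as over all tested probe sets. The groups overlapped for all 71, while 1.41% of all tested probe sets had no overlap with IDE-KD lower and 1.39% with IDE-KD higher. Without IDE-KD arrays 1 and 3 the median of the bright probe sets was 0.023. That of the 71 genes was 0.040 in the same fit, -0.031 without IDE-KD array 1 and -0.018 without IDE-KD array 3. With the exon control mean subtracted it was 0.0038, against 0.059 over all tested probe sets. The lowest were Blm, a helicase of recombination, at -0.29 (SE 0.14), Chtf18, part of an alternative clamp loader, at -0.24 (SE 0.14), Cdc25a, a phosphatase that activates cyclin-dependent kinases, at -0.22 (SE 0.12) and Pclaf, a PCNA-binding protein, at -0.22 (SE 0.15). The highest were Rnaseh2b, a subunit of ribonuclease H2, at 0.11 (SE 0.15) and Orc3, an origin recognition subunit, at 0.11 (SE 0.13).

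Mitotic genes act after replication. Of 50 listed, 47 were measured, with a median of -0.03, 29 lower (61.7%) and 18 higher. The 8745 bright probe sets were close to this, with a median of -0.03 and 58.8% lower. The groups did not overlap, with IDE-KD lower, for 2 of the 47, against 1.41% of all tested probe sets. At an unadjusted p under 0.05 in limma 1 of the 47 was lower, against 1.91%. The median of the mitotic genes turned to 0.0025 without IDE-KD array 1, 0.016 without IDE-KD array 3 and 0.0011 with the arrays brought to the same SD. Without both arrays it was 0.023, as over the bright probe sets. With the exon control mean subtracted it was 0.019, against 0.059 over all tested probe sets. On IDE-KD arrays 1 and 3, 36 and 42 of the 47 were below their control mean (76.6% and 89.4%). The shares of the bright probe sets there were 61.1% and 70.6%. The lowest were Cdc25c at -0.37 (SE 0.19), Kif18a at -0.26 (SE 0.13), Kif20a at -0.26 (SE 0.12) and Cdca8 at -0.25 (SE 0.11), and the highest Bub3 at 0.11 (SE 0.16) and Ccnb2 at 0.08 (SE 0.17). No test of the difference between the mitotic and the replication genes was made.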

How the data were processed

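Each array's column was deposited as log2 expression. For its making, RMA, oligo and limma are listed in the submitters' processing notes, with no version given. RMA usually equalises array distributions, yet the SD over tested rows still ranged from 2.13 to 2.25. The array annotation gave 1 symbol for 19527 of 22142 tested transcript cluster rows, several for 0 and none for 2615. All 19527 were found in the RefSeq gene table and 0 symbols differed. Control rows (6923) and unplaced rows (64) were left out.

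The deposited log2 values were fitted as IDE-KD minus control with limma 3.58.1 (lmFit, eBayes) in R 4.3.3, with Benjamini-Hochberg adjustment over 22142 rows. The fit was checked on simulated data. The number of arrays limits precision: the median half-width of the 95% interval was 0.28 for the 42 genes. A log2 difference of 1 is 2-fold.

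The members and lists were chosen with earlier results of these data known. Values on every array are given for the 12 lowest genes, those above 0, the lowest of each role, Pcna and E2f1. From the 2 other lists the 4 lowest and 2 highest are named. Alternatives were other scalings, weights, variance models, a filter on dim rows, a replicate block and left-out arrays.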

Additional observations from a re-analysis of the deposited data

Results flagged for a closer look

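Among 118 groups of 4 arrays examined, 4 held 1 array far from the other 3, where chance alone gives about 5%. Dut read 7.40 on IDE-KD array 2, above the other 3 IDE-KD arrays. Rfc3 read 5.89 on control array 1, below the other control arrays by a small amount. Pclaf read 8.37 on IDE-KD array 2, above the other IDE-KD arrays. Kif20a read 8.74 on control array 1, below the other control arrays.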

How the results depend on the processing

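The count past an adjusted p of 0.05 was 0 under all 18 alternatives (limma; 581 to 1749 rows at an unadjusted p under 0.05). Without IDE-KD arrays 1 and 3 together, the median of the 42 genes was 0.055, that of the other replication and S phase genes 0.040, 17 of the 42 genes were lower and 4 had no overlap. The count without overlap was 0 after quantile normalization, 0 after cyclic loess, 1 with the arrays brought to the same SD and 0 with the exon control mean subtracted. With 1 array left out it was 2 to 5, the median -0.11 to -0.027, the number lower 25 to 34 and the Ide difference -0.66 to -0.58. Fewer arrays make a count without overlap easier to reach, and no share over all tested probe sets is given for these settings. The causes of the other shifts were not tested. Of the 42 single differences, 14 moved by more than the SD between replicates without IDE-KD arrays 1 and 3. Under the 5 other scalings and with array weights, 0 did. Leaving out 1 of 4 arrays cannot move a difference that far, so those fits could not have shown such a move. The replicate block, the filter on dim rows and the other variance model leave each difference unchanged by design. The median of -0.08 with the block is therefore no sign of stability. With the block 0 rows passed. Same-numbered arrays of the groups correlated at 0.09 to 0.13 in their deviations from the group means. Odd-numbered arrays correlated with odd-numbered ones at 0.09 to 0.17, and even-numbered with even-numbered ones at 0.02 to 0.21. Odd-numbered with even-numbered arrays correlated at -0.23 to -0.05. Control arrays 1 and 3 thus shared some of the deviations of IDE-KD arrays 1 and 3, and the cause was not tested. Not every array correlated best with its own number, so the numbers were not taken as pairs.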
